A study of Rattus norvegicus with 8 samples.

Results

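The miRNAs described are the 5 mature miRNAs of a pair of clusters that are paralogs of the miR-17-92 cluster: miR-106b-5p, miR-93-5p and miR-25-3p from the miR-106b-25 cluster, and miR-20b-5p and miR-363-3p from the miR-20b-363 cluster. They were taken by name from the 719 rat miRNAs on the array, and all 5 were on it. The samples were exosome-rich RNA from the serum of male, specific pathogen-free Wistar rats. Sham-operated controls filled 4 arrays, numbered 1 to 4, and 4 held acid reflux esophagitis in its chronic phase, numbered 5, 8, 9 and 10, with 1 array per sample. The labels give day 21 after induction for the reflux esophagitis samples, and the same day for controls is taken from the paper. Reflux was produced by surgery that narrowed the duodenum near the pylorus and tied off the forestomach. The age of the rats was not given in the sources used here, nor whether each sample came from a separate animal, so p-values measure the spread between these samples only. Exosomes were collected by polymer precipitation of serum, and the RNA is a mixture from every cell type that sheds vesicles into blood. Fewer vesicles from a cell type and less of a miRNA per vesicle cannot be told apart in such a mixture. The comparison asks which circulating miRNAs differ in the chronic phase of esophagitis.

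A miRNA guides the Argonaute protein to messenger RNAs, mostly through pairing of its seed, the bases 2 to 8 counted from its 5′ end, and lowers the output of those messages. Ancient duplications gave mammals a trio of related clusters, which carry miRNAs of a few shared seeds. In human and mouse cells the miR-17-92 cluster is known as a driver of cell proliferation and survival that MYC and E2F factors switch on. miRNAs with the seed of miR-106b-5p are known there to target the cell cycle inhibitor CDKN1A and the transcription factor E2F1, and those with the seed of miR-25-3p to target the cell death protein BIM. The miR-106b-25 cluster lies within Mcm7, a gene for a subunit of the helicase that opens DNA for replication. In mice the miR-106b-25 cluster is active in many adult tissues, whereas the cluster on the X chromosome is mostly silent.

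The 5 members fall into these seed families, and their sequences are shown because both the grouping and the ability of the probes to tell relatives apart depend on them. The sequences are from RefSeq on rat build GRCr8, written 5′ to 3′, with the seed in capitals. Members with the miR-106b-5p seed and their closest relatives from the miR-17-92 cluster were these.
rno-miR-106b-5p: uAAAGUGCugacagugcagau
rno-miR-93-5p: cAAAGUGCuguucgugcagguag
rno-miR-20b-5p: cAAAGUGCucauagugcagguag
rno-miR-20a-5p: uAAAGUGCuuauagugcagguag
rno-miR-17-5p: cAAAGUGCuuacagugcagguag
Members with the miR-25-3p seed and their relative from the miR-17-92 cluster were these.
rno-miR-25-3p: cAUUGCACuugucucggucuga
rno-miR-363-3p: aAUUGCACgguauccaucugu
rno-miR-92a-3p: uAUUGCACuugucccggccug

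Likeness outside the seed did not follow the clusters. miR-20b-5p was 2 single-base edits from miR-20a-5p and 2 from miR-17-5p, against 6 from miR-106b-5p and 3 from miR-93-5p. miR-106b-5p and miR-93-5p, hairpins of the same cluster, were 7 edits apart, and the nearest relative of miR-93-5p outside its cluster was 3 edits away. miR-25-3p was 4 edits from miR-92a-3p and 7 from miR-363-3p. In GRCr8 the genes Mir106b, Mir93 and Mir25 lie within 494 bases on the minus strand, at chr12:22156641-22157134, inside the span of Mcm7 (chr12:22155921-22163320). Whether they lie in an exon or an intron of Mcm7 was not analysed here. Mir106a, Mir20b, Mir19b2, Mir92a2 and Mir363 lie within 871 bases on the minus strand of the X chromosome, at chrX:137342777-137343647, and no gene other than a miRNA encloses them in the RefSeq table. The mature miR-17-5p is made from Mir17 on chromosome 15 and, with the same sequence, from Mir106a on X, and miR-92a-3p from Mir92a1 on 15 and Mir92a2 on X. An array signal for these cannot be assigned to 1 locus. Mir19b2 lies on X too, and the loci of miR-19b-3p were not compared here. miR-20b-5p and miR-363-3p each have a single locus in the table, on X, and were therefore the members that report on the X cluster.

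Each miRNA was read by 20 spots, which for the members are 10 spots of each of 2 probes. Every probe matched its miRNA without a mismatch up to the last base. The probes of miR-20b-5p differ from miR-20a-5p at 1 base and from miR-17-5p at 2 bases. For miR-106b-5p the nearest relative was miR-17-5p, with 2 mismatches, for miR-93-5p miR-20a-5p and miR-20b-5p, with 3, and for miR-25-3p miR-92a-3p, with 3. The probes of miR-363-3p had at least 8 mismatches to every relative of its seed family. Cross-hybridisation between relatives was not tested.

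Of the 719 miRNAs, 279 were detected on at least 1 array and 144 on all 8. Between 212 and 232 were detected per control, and between 144 and 245 per array with reflux esophagitis, the lowest being replicate 9. That library was also the dimmest. Its 75th percentile of signal over the miRNAs detected on all arrays was 239, against 494 to 915 in controls and 442 to 1080 on the other arrays with reflux esophagitis. Signals were divided by that percentile and are given as log2 of the quotient, called the log2 scaled signal, where 0 is the percentile itself. Levels of different miRNAs are not comparable on this scale, because each probe binds with its own strength.

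miR-106b-5p, miR-93-5p, miR-25-3p and miR-20b-5p were detected on all 8 arrays, and miR-363-3p on all 4 controls and 3 of 4 arrays with reflux esophagitis. None of the 5 opposite strands, miR-106b-3p, miR-93-3p, miR-25-5p, miR-20b-3p and miR-363-5p, was detected on any array, although probes for all 5 were present. For these 5 hairpins the detected signal therefore came from the same single arm in both groups. Before scaling, the total signal of miR-25-3p ranged from 539 to 2656 over the 8 arrays and that of miR-363-3p, where detected, from 17.5 to 71.5. The lowest signal of any detected miRNA was between 3.29 and 4.60 on the 8 arrays, so miR-363-3p stood near the lower end of what the arrays measured. No spot of a member was saturated. The software's error of the total signal was 7.61% to 9.03% for the 4 brighter members and 10.6% to 18.7% for miR-363-3p where it was detected.

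miR-106b-5p, the first hairpin of its cluster, had a log2 scaled signal of 0.84, 1.60, 0.70 and 0.91 in control replicates 1 to 4. In reflux esophagitis replicates 5, 8, 9 and 10 it was 0.29, 0.94, 0.45 and 0.24. Reflux esophagitis replicates 5, 9 and 10 lay below every control and replicate 8 lay inside the control range, so the groups overlapped. The means were 1.01 ± 0.40 (SD, n = 4) and 0.48 ± 0.32 (SD, n = 4), a log2 fold change of -0.53 (SE 0.32, 95% interval -1.26 to 0.19), which is 0.692 times the control level with an interval from 0.419 to 1.14. This change did not pass the test (limma, Benjamini-Hochberg adjusted p = 0.870, and two-sided exact permutation test over 70 splits, p = 0.114, where the smallest possible p is 0.0286).

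miR-93-5p, the middle hairpin, was at -0.076, 0.54, -0.26 and 0.15 in the controls. With reflux esophagitis it was at -0.91, -0.0073, 0.097 and -0.51. Replicates 5 and 10 lay below all controls, and replicates 8 and 9 lay among them. The means were 0.087 ± 0.34 and -0.33 ± 0.47 (SD, n = 4 each), with a log2 fold change of -0.42 (SE 0.34, 95% interval -1.19 to 0.35, limma adjusted p = 0.912, exact permutation p = 0.229). The interval in linear terms ran from 0.439 to 1.27 times the control level.

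miR-25-3p, the third hairpin and the member with the other seed, gave 1.07, 1.91, 0.87 and 1.40 in the controls. Reflux esophagitis gave 0.25, 1.30, 1.17 and 0.39. As with miR-93-5p, replicates 5 and 10 were below every control while replicates 8 and 9 fell inside the control range. The means of 1.31 ± 0.46 and 0.78 ± 0.53 (SD, n = 4 each) differed by -0.53 (SE 0.38, 95% interval -1.39 to 0.32, limma adjusted p = 0.912, exact permutation p = 0.229), or 0.691 times the control level with an interval from 0.382 to 1.25. In all 3 members of the miR-106b-25 cluster, control replicate 2 was the highest of the 8 arrays. The same array was also the highest for some miRNAs outside the cluster, such as miR-16-5p (3.66) and miR-192-5p (-0.58). It was not the highest for others, such as miR-451-5p.

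miR-20b-5p of the X cluster had values of -0.00077, -0.39, -0.29 and 0.13 in the controls. With reflux esophagitis these were -0.0056, 0.53, -0.50 and -0.67. Here reflux esophagitis replicate 8 lay above all controls, replicates 9 and 10 below all of them and replicate 5 within, and control replicate 2 was the lowest control rather than the highest. The SD was 0.24 in controls and 0.54 in reflux esophagitis (n = 4 each). The means of -0.14 and -0.16 differed by -0.023 (SE 0.34, 95% interval -0.80 to 0.75, limma adjusted p = 0.971, exact permutation p = 0.971). The difference had no settled sign, at 0.21 without replicate 9 and -0.25 without replicate 8. In linear terms the interval was 0.574 to 1.69 times the control level, so differences of that size cannot be told from no difference with these arrays.

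miR-363-3p, also of the X cluster, stood at -4.60, -4.36, -4.93 and -4.29 in controls, with a mean of -4.54 ± 0.29 (SD, n = 4). In reflux esophagitis replicates 5, 8 and 10 it stood at -4.10, -3.92 and -4.66, with a mean of -4.23 ± 0.39 (SD, n = 3), and it was not detected in replicate 9. Replicates 5 and 8 were above all controls and replicate 10 was within their range. No fold is given, because 1 array has only a bound. With replicate 9 placed at the floor of -8.16 the fit gave -0.67 (SE 0.86, limma adjusted p = 0.912). Without replicate 9 it gave 0.43 (SE 0.43, 95% interval -0.51 to 1.37, limma adjusted p = 0.913). The direction therefore rests on the floored value of that library. The total signal of miR-363-3p came from the longer of its 2 probes, which had 70 of 80 spots well above background, while the shorter had 0 of 80. On replicate 9 only 1 of 10 spots of the longer probe was well above background, and its signal there was -4.82, between the lowest and the highest control. With that value kept, the mean log2 difference of the longer probe over all 8 arrays was 0.17.

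**Figure D1:**
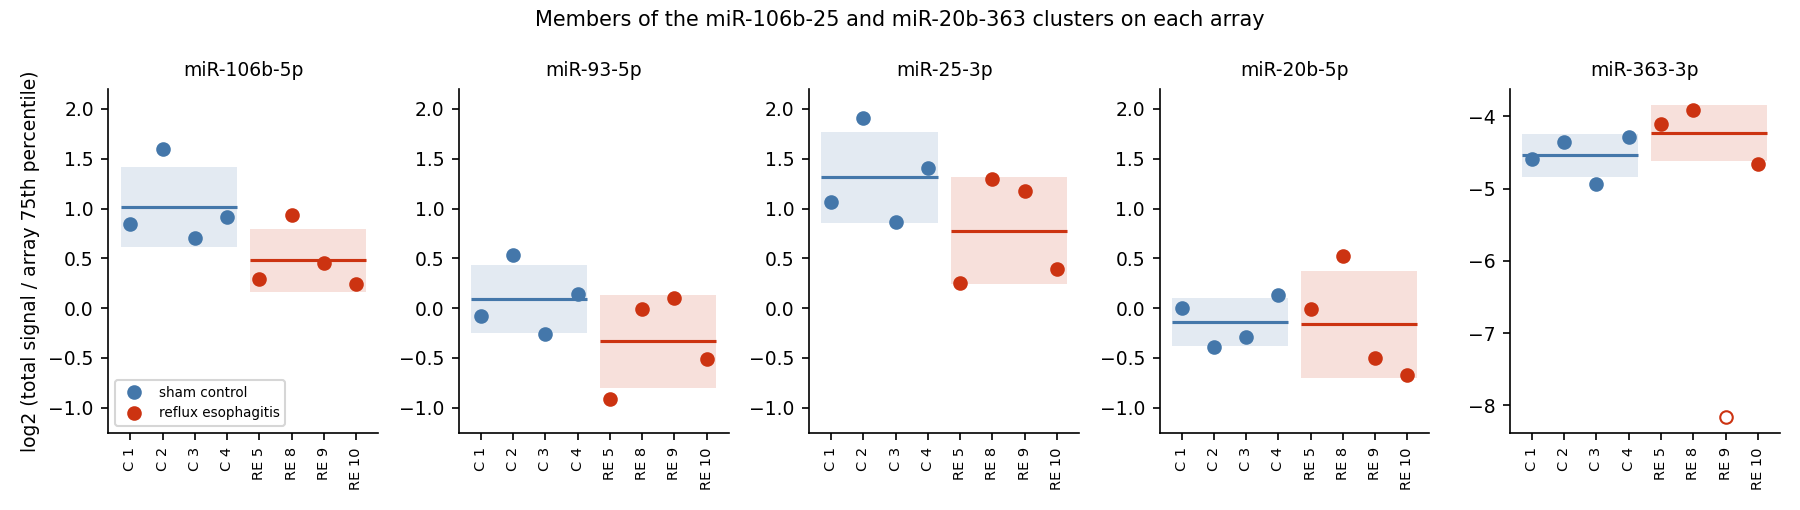
Log2 scaled signal (vertical axis, log2 of total signal over the array's 75th percentile) of each member on each array, with controls in blue and reflux esophagitis in red. Lines are group means and shaded boxes 1 SD either side, over n = 4 except for reflux esophagitis in the miR-363-3p panel (n = 3), where the open circle is the undetected replicate 9 at the floor of -8.16. The groups overlap in every panel, and control replicate 2 is the highest point for the 3 members of the miR-106b-25 cluster.

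The 2 probes of each brighter member gave like changes. They were -0.51 and -0.58 for miR-106b-5p, -0.38 and -0.43 for miR-93-5p, -0.58 and -0.53 for miR-25-3p, and -0.081 and -0.0030 for miR-20b-5p, all as mean log2 differences of reflux esophagitis minus controls. The probes of 1 miRNA thus differed from each other by less than the SD between replicates.

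The test covered the 192 miRNAs that every array of a group detected. All 192 were detected on all 4 controls, and 48 of them were missing from at least 1 array with reflux esophagitis and stood at the floor there. The list is therefore one-sided: the floored values pull those 48 downward, and all 48 came out lower. In the fit, 2 of the 192 were lower in reflux esophagitis after adjustment (1.04%) and 0 were higher (0%), and at an unadjusted p under 0.05 there were 5 lower and 0 higher. Among the 144 miRNAs detected on all 8 arrays, fitted alone with limma, 0 were called in either direction (0%). None of the 5 members was called in either direction, and none had an unadjusted p under 0.05. The groups overlapped for all 4 members detected on all 8 arrays, as they did for all 144 such miRNAs. These 4 members had log2 fold changes below 0, as did 108 of the 144 (75%), and their median was -0.48 against -0.19 over the 144. Over all 192 the shares were 1.56% without overlap (3, all lower and all among the 48) and 81.2% below 0 (156), which include the floored values. miR-363-3p is one of the 48 and is left out of these counts of members, since the floor sets its direction. Relative to the median of -0.19, miR-106b-5p, miR-93-5p and miR-25-3p were at -0.34, -0.23 and -0.34 and miR-20b-5p was at 0.17. For miR-106b-5p that distance was slightly above its SD in reflux esophagitis (0.32) and below its SD in controls (0.40), and for miR-93-5p and miR-25-3p it was below the SD in both groups. Over all 192 tested miRNAs the median was -0.29, and it was -0.15 without reflux esophagitis replicate 9. The direction of the 4 members depended on the scaling. Under the main scaling without that library, miR-106b-5p, miR-93-5p and miR-25-3p stayed below 0, at -0.41, -0.45 and -0.55, while miR-20b-5p turned to 0.21. When the percentile was taken over all 719 miRNAs, the 4 members were at 1.17, 1.28, 1.16 and 1.67 in the order above, while the median over the tested miRNAs moved to 1.39. Replicate 9 detected only 144 of the 719, so its percentile was then the signal of 0.1 that undetected miRNAs carry. With the percentile over all miRNAs and replicate 9 left out, a setting chosen after seeing the data, they were at -0.25, -0.29, -0.39 and 0.36, with a median of 0.0016.

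**Figure D2:**
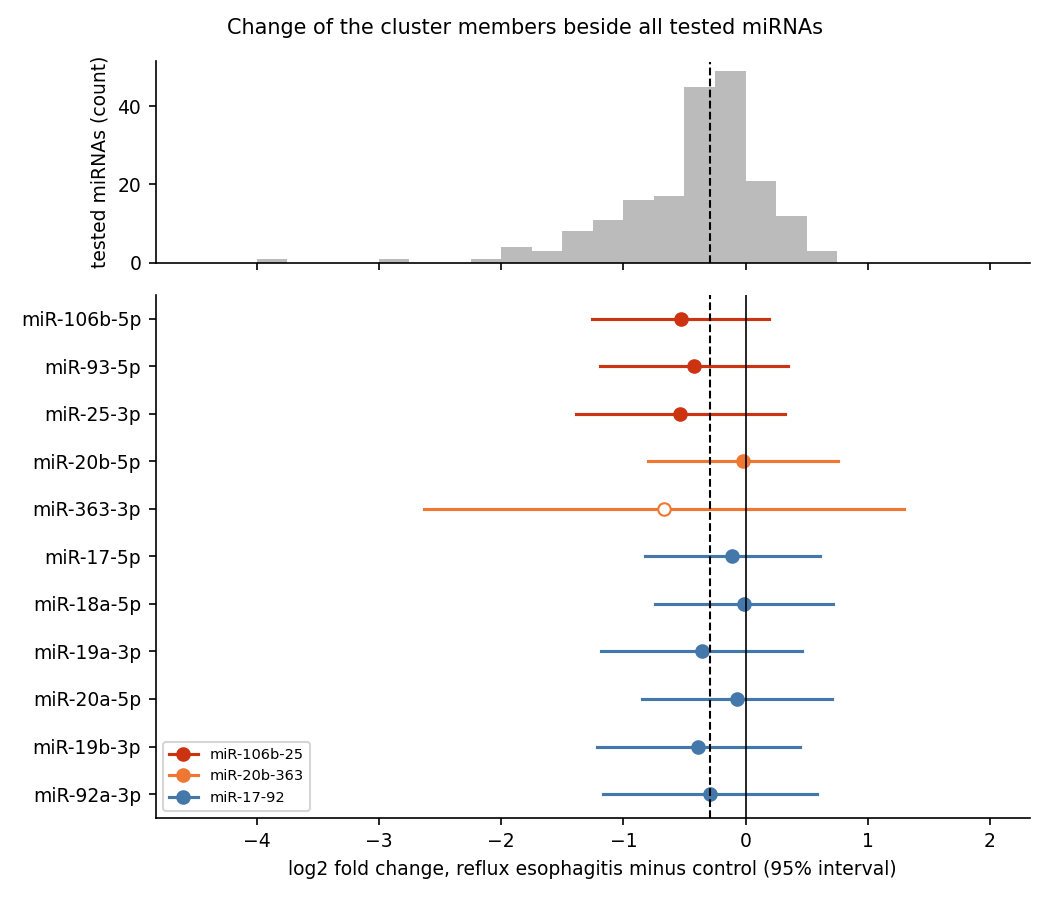
Upper panel, number of the 192 tested miRNAs at each log2 fold change (reflux esophagitis minus control). Lower panel, log2 fold change with its 95% interval for the 5 members and 6 miRNAs of the miR-17-92 cluster, with the median of all tested miRNAs (-0.29) dashed and miR-363-3p open because replicate 9 is at the floor. Every interval spans 0. The 48 miRNAs with floored values in reflux esophagitis all lie below 0 in the upper panel.

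Differences between members on the same array are free of the array's scaling, and only their movement between arrays was read, not their level. Within the miR-106b-25 cluster these differences were steady. miR-93-5p minus miR-25-3p was -1.14, -1.38, -1.12 and -1.26 in controls, against -1.16, -1.31, -1.08 and -0.90 with reflux esophagitis, an SD of 0.15 over the 8 arrays although miR-25-3p itself covered 0.25 to 1.91. The SD over 8 arrays was 0.23 for miR-106b-5p minus miR-25-3p and 0.26 for miR-106b-5p minus miR-93-5p. The group means of these 3 differences moved by 0.11, 0.0023 and -0.11 in the order given, each less than its own SD over the arrays. Without reflux esophagitis replicate 9 they moved by 0.10, 0.14 and 0.041. The widest departure was reflux esophagitis replicate 9, where miR-106b-5p was lower relative to miR-93-5p and to miR-25-3p than on any other array (0.36 and -0.72, against 0.75 to 1.21 and -0.49 to 0.045 elsewhere).

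The same differences taken against miR-20b-5p were less steady. For miR-106b-5p minus miR-20b-5p the values were 0.84, 1.99, 0.99 and 0.78 in controls, against 0.30, 0.41, 0.96 and 0.91 with reflux esophagitis. Control replicate 2 stood well above every other array, and replicates 5 and 8 with reflux esophagitis were the lowest. The SD over 8 arrays was 0.51 for this pair, 0.58 for miR-93-5p minus miR-20b-5p and 0.60 for miR-25-3p minus miR-20b-5p. The group means moved by -0.51, -0.40 and -0.51, but the groups overlapped in each pair. Single libraries changed the size of these movements but not their sign. In the same order, they were smaller without control replicate 2, at -0.23, -0.16 and -0.23, and without reflux esophagitis replicate 5, at -0.39, -0.15 and -0.28. Without reflux esophagitis replicate 9 they were larger, at -0.61, -0.65 and -0.76.

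Against miR-363-3p, on the 7 arrays that detected it, the movements were larger. miR-106b-5p minus miR-363-3p was 5.44, 5.96, 5.63 and 5.20 in controls, against 4.40, 4.85 and 4.90 with reflux esophagitis (replicates 5, 8 and 10). All 3 reflux esophagitis values lay below all 4 controls, with a movement of -0.84 between the group means. The movement was -0.88 for miR-93-5p and -0.98 for miR-25-3p, again without overlap, and -0.23 with overlap for miR-20b-5p, the neighbour of miR-363-3p on X. Of the 176 miRNAs detected on the same 7 arrays, 18 (10.2%) had a difference from miR-363-3p that was lower on all 3 arrays than on all 4 controls, and 0 (0%) had one that was higher. The 3 differences share miR-363-3p and are not independent of each other. The lack of overlap also rests on leaving out replicate 9. With the longer probe of miR-363-3p used on all 8 arrays, replicate 9 reached 5.27, 4.91 and 5.99 for miR-106b-5p, miR-93-5p and miR-25-3p, and 0 of the 3 remained without overlap. The movements between the group means were then -0.70, -0.59 and -0.70, of the same sign and smaller.

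**Figure D3:**
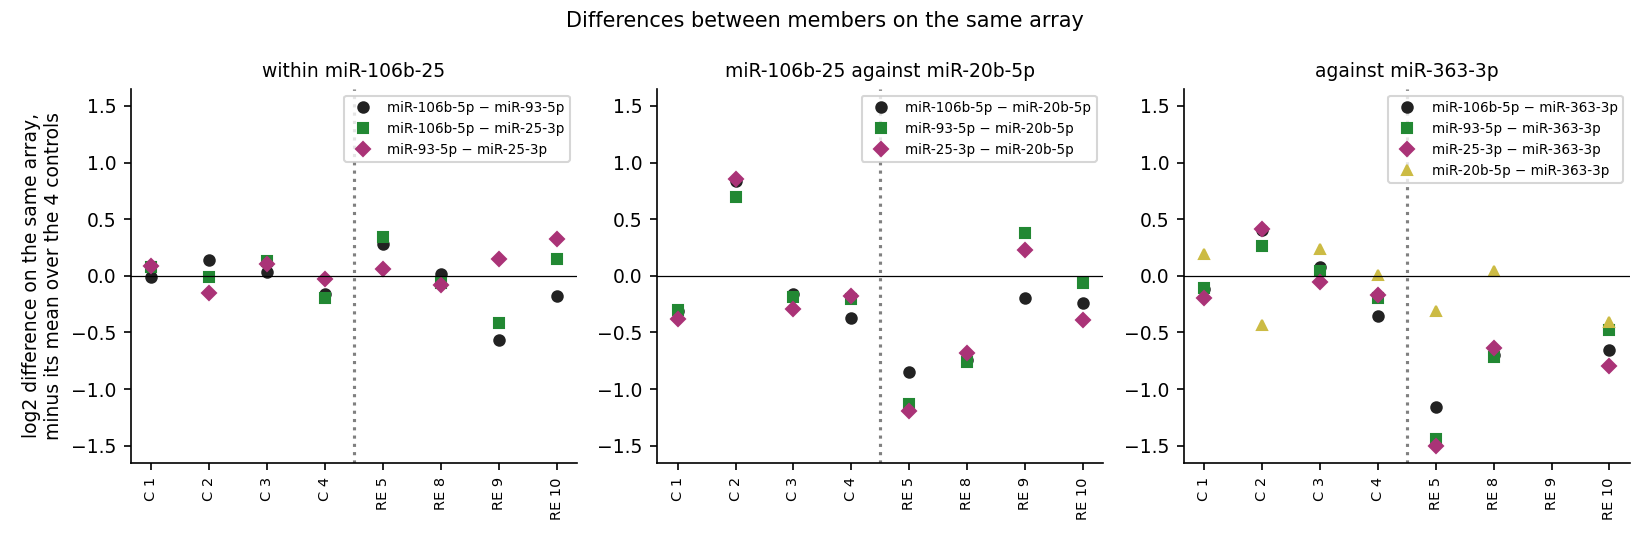
Log2 difference between pairs of members on the same array, minus its mean over the 4 controls (vertical axis), for each of the 8 arrays, with controls left of the dotted line. Pairs inside the miR-106b-25 cluster stay within 0.57 of 0, pairs against miR-20b-5p spread from -1.20 to 0.85, and the right panel has no points for replicate 9, where miR-363-3p was not detected.

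Each of the 4 members detected on all 8 arrays was then set against the 143 other miRNAs detected on all 8, ranked by the SD over the 8 arrays of the log2 difference on the same array. A small SD means that a pair of miRNAs went up and down together from sample to sample. This is a description over 8 arrays that share their scaling and dye, and it carries no test. For miR-106b-5p the closest were miR-16-5p (SD 0.15), miR-185-5p (0.17) and miR-25-3p (0.23), with miR-93-5p at rank 4. For miR-93-5p they were miR-25-3p (0.15), miR-320-3p (0.16) and miR-16-5p (0.21), with miR-106b-5p at rank 4. For miR-25-3p they were miR-93-5p (0.15), miR-185-5p (0.20) and miR-16-5p (0.23), again with miR-106b-5p at rank 4. The members of the miR-106b-25 cluster were thus among the 4 closest to each other. With the mean processed signal, miR-93-5p was at rank 6 for miR-106b-5p and miR-106b-5p at rank 5 for miR-93-5p. The median SD over the 143 was 0.71, 0.74 and 0.82 for these 3 members. miR-20b-5p ranked 41, 41 and 39 for them.

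miR-20b-5p of the X cluster ran instead with several miRNAs of the miR-17-92 cluster, and with some from neither cluster. Of the former, at least miR-17-5p and miR-92a-3p are also made on X. Closest to miR-20b-5p were miR-20a-5p (SD 0.084), miR-130b-3p (0.12) and miR-18a-5p (0.14), followed by miR-17-5p at rank 4 (0.16). Ranks 5, 6 and 7 were miR-130a-3p, miR-223-3p and miR-301a-3p, which belong to neither cluster. miR-19a-3p was at rank 8, miR-19b-3p at 13 and miR-92a-3p at 23, whereas miR-106b-5p, miR-93-5p and miR-25-3p were at 51, 61 and 66. The difference of miR-20b-5p from miR-20a-5p was between -1.44 and -1.20 on all 8 arrays and moved by 0.045 between the groups. Since the probes of miR-20b-5p and the sequence of miR-20a-5p differ at 1 base, signal from that relative on these probes cannot be told apart from co-movement of the 2 miRNAs. miR-130b-3p and miR-18a-5p have other seeds than miR-20b-5p and were not compared with its probes.

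**Figure D4:**
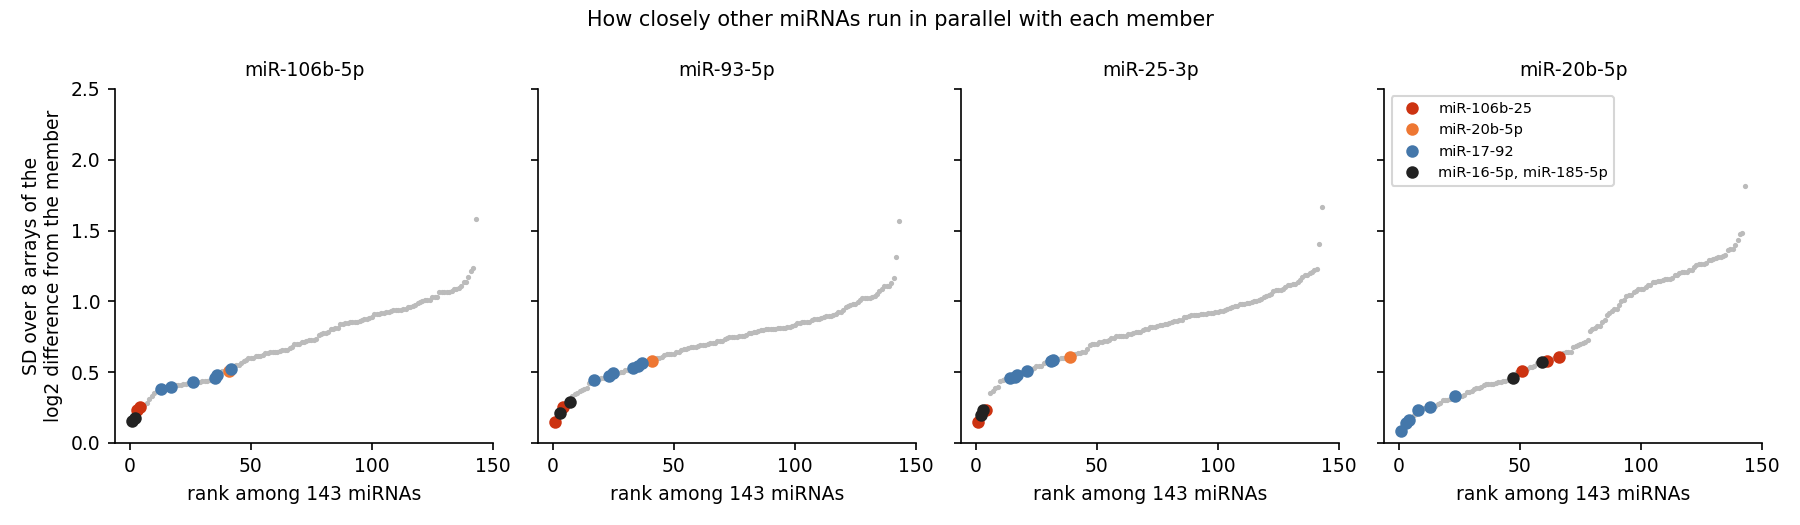
For each member detected on all 8 arrays, the SD over the arrays of the log2 difference from each of 143 other miRNAs (vertical axis), in order of rank (horizontal axis). Members of the miR-106b-25 cluster (red) lie at ranks 1 to 4 for each other, among miR-16-5p and miR-185-5p (black), and the 6 miRNAs of the miR-17-92 cluster (blue) lie at ranks 1 to 23 for miR-20b-5p.

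The miR-17-92 cluster itself, on chromosome 15 but sharing at least miR-17-5p and miR-92a-3p with X, had 13 mature miRNAs on the array. Of these, 6 were detected on all arrays, miR-20a-3p on 2 arrays with reflux esophagitis, and 6 on none. All 6 had log2 fold changes below 0, beside the 75% over all miRNAs detected on every array, and 0 passed the test, with a median of -0.20. The changes were -0.11 for miR-17-5p, -0.013 for miR-18a-5p, -0.36 for miR-19a-3p, -0.39 for miR-19b-3p, -0.069 for miR-20a-5p and -0.29 for miR-92a-3p, with SEs from 0.32 to 0.39 and limma adjusted p between 0.912 and 0.980. In miR-20a-5p, as in miR-20b-5p, reflux esophagitis replicate 8 was the highest of the 8 arrays (1.88) and replicate 10 the lowest (0.57). The same held for miR-17-5p, miR-18a-5p, miR-19a-3p and miR-19b-3p. For miR-92a-3p replicate 10 was again the lowest (1.92), but control replicate 4 was the highest (3.49).

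By seed, all 5 miRNAs with the seed of miR-106b-5p were tested, and their median log2 fold change was -0.11. miR-93-5p and miR-106b-5p from chromosome 12 lay below that median and miR-20a-5p and miR-20b-5p above it. Of the 5 with the seed of miR-25-3p, 3 were tested (miR-25-3p, miR-92a-3p and miR-363-3p), while miR-32-5p was detected on 2 arrays with reflux esophagitis and 0 controls, and miR-92b-3p on 2 arrays of each group. miR-25-3p minus miR-92a-3p had an SD of 0.46 over the 8 arrays and ranged from -2.27 to -0.85, so miR-25-3p ran more closely with the neighbours in its own cluster than with this relative by seed.

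Markers of blood cells, liver and muscle were present in the serum RNA. Of 5 red blood cell miRNAs 4 were found by name and tested, with 0 called and a median log2 fold change of 0.052. Their summed scaled signal was 16.5 to 31.8 in controls and 13.5 to 27.9 in reflux esophagitis. Of these 4, miR-16-5p, which ran closest with miR-106b-5p, had a log2 fold change of -0.41 (SE 0.30, limma adjusted p = 0.912), while miR-451-5p, a miRNA made in maturing red blood cells, was at rank 62 for miR-106b-5p, 39 for miR-93-5p and 42 for miR-25-3p. In the same order, miR-144-3p was at ranks 78, 87 and 81 and miR-144-5p at 116, 108 and 113. Their log2 fold changes were 0.26 and 0.32. All 5 platelet miRNAs were tested, with 0 called and summed signals of 13.0 to 17.5 in controls and 11.4 to 17.4 in reflux esophagitis. One of them, miR-191a-5p, was detected on 2 of 4 arrays with reflux esophagitis and holds floored values, so no median is given. The log2 fold changes were 0.26 for miR-126a-3p, 0.16 for miR-223-3p, -0.24 for miR-24-3p and -0.29 for miR-22-3p. All 4 leukocyte miRNAs were tested with 0 called and a median of -0.091. Of the 2 hepatocyte miRNAs, miR-192-5p was detected on all 8 arrays, with a log2 fold change of -0.71 (SE 0.36, limma adjusted p = 0.870). The other, miR-122-5p, and all 4 striated muscle miRNAs were detected on all 4 controls but not on every array with reflux esophagitis. Their fold changes hold floored values, so no median is given for either list. The muscle miRNA miR-208a-3p, detected on 4 controls and 1 array with reflux esophagitis, was called lower, but its other reflux esophagitis values are at the floor and the call rests on them. The share called lower was 1.04% over all tested miRNAs and 0% over those detected on all 8 arrays. The part of these cell types in the signal of the members was not tested.

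Under the 28 other settings tried, none of the members passed the test in any (27 for miR-363-3p). The smallest adjusted p over these settings was 0.263 for miR-106b-5p, 0.193 for miR-93-5p, 0.219 for miR-25-3p, 0.603 for miR-20b-5p and 0.574 for miR-363-3p. Relative to the median of all tested miRNAs under the same setting, miR-106b-5p was below in 28 of 28 settings, miR-25-3p in 27, miR-93-5p in 25 and miR-20b-5p in 2. miR-363-3p was below in 20 of 27. These settings reuse the same arrays and are not independent. The methods' t-test and analysis of variance, and eBayes with trend and robust, repeat the distance of the main setting exactly. The counts therefore do not measure support for a shift.

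**Figure D5:**
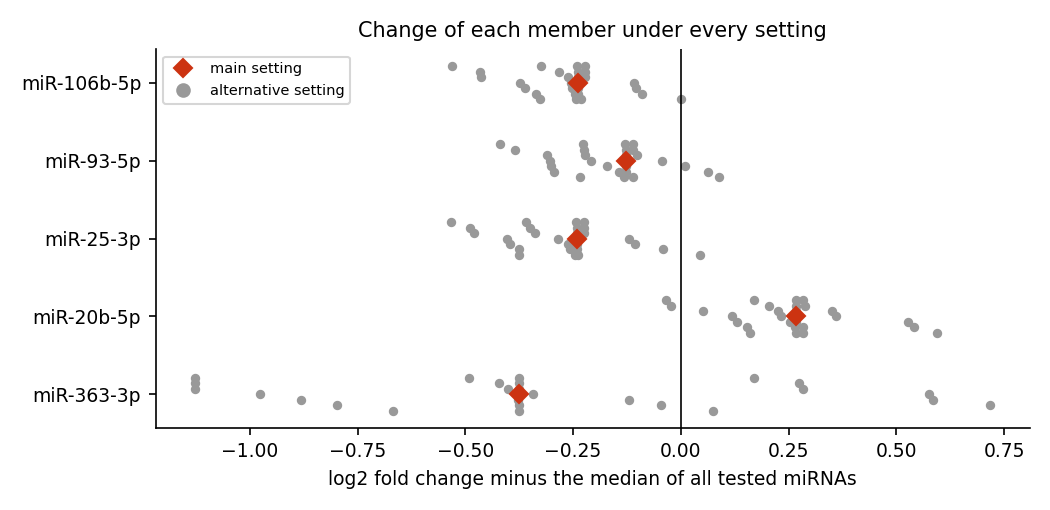
Log2 fold change of each member minus the median log2 fold change of all tested miRNAs (horizontal axis) under the main setting (diamond) and each alternative (grey points). The points of miR-106b-5p run from -0.53 to just below 0 and those of miR-20b-5p from -0.035 to 0.60, while those of miR-363-3p spread from -1.13 to 0.72.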

How the data were processed

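Exosomal RNA from rat serum was hybridised to Agilent Rat miRNA arrays (release 19.0), 1 array per sample, and read with feature extraction software 10.10.1.1. The files deposited by the authors hold intensity values on a linear scale, per spot and as a total per miRNA, with background subtracted and no scaling between arrays. Undetected miRNAs carry a total signal of 0.1. The deposited value table equals the processed spot intensity on all 15095 features (tolerance 1e-06) and served as an alternative. It held 0 columns of other samples. All arrays were on 1 slide with 1 scan time.

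Total signals were divided by the 75th percentile of the miRNAs detected on all 8 arrays, floored at 0.00350 (log2 -8.16), the lowest quotient of any detected miRNA, and log2-transformed. limma 3.58.1 (R 4.3.3; lmFit, eBayes with the default prior, two-sided) compared the groups over the 192 miRNAs detected on every array of a group, with Benjamini-Hochberg adjustment and a threshold of 0.05. The exact permutation test used all 70 splits. The model was tested on simulated data with changes larger than those of the members. That test does not show how often changes of the members' size would be called. The number of arrays, 4 per group, limits the precision. The members and lists were chosen with earlier results of these data known. Values are given for all 5 members, for the miRNAs of the miR-17-92 cluster and of both seeds where detected on every array of a group, and for the 3 miRNAs running closest to each member. Marker lists are summarised, and miR-486 was not found under the name listed. Tables and figures used Python 3.11.15, pandas 2.3.3, numpy 2.4.6, scipy 1.17.1 and matplotlib 3.10.9. Alternatives covered the signal, background correction, scaling, floor, filter, variance model, the methods' t-test and analysis of variance, and leaving out each array. The methods' scaling without reflux esophagitis replicate 9, and the longer probe of miR-363-3p on all arrays, were chosen after seeing the data. Sequences and loci are from RefSeq tables of GRCr8. Real-time RT-PCR and tissue measurements were not analysed here.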

Additional observations from a re-analysis of the deposited data

Results flagged for a closer look

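Control replicate 2 stood apart from the other 3 controls in a pair of within-array differences, by its gap to the nearest control relative to the range of the group (Dixon's test at its 95% critical value). Its miR-93-5p minus miR-20b-5p was 0.93, with the nearest control at 0.035. Its miR-25-3p minus miR-20b-5p was 2.30, with the nearest control at 1.27. Both differences contain miR-20b-5p, and the same array had the highest miR-93-5p and miR-25-3p of all 8 arrays and the lowest miR-20b-5p among controls. Of 37 groups of 4 compared in this way, 2 were marked, and chance marks about 1 group in 20, or 1.85 of 37.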

How the results depend on the processing

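No member passed the test under any alternative, and a p that misses the threshold does not show that levels were alike. With the 75th percentile over all miRNAs, and equally with the methods' scaling, the log2 fold changes of miR-106b-5p, miR-93-5p, miR-25-3p, miR-20b-5p and miR-363-3p turned to 1.17, 1.28, 1.16, 1.67 and 0.26, while the median over all tested miRNAs was 1.39. Reflux esophagitis replicate 9 detected only 144 of the 719 miRNAs, so its divisor was then the undetected signal of 0.1. With the methods' scaling and reflux esophagitis replicate 9 left out, miR-106b-5p, miR-93-5p and miR-25-3p were back below 0, at -0.25, -0.29 and -0.39, while miR-20b-5p was at 0.36 and miR-363-3p at 0.59. miR-20b-5p, at -0.023, also turned to 0.029 with normexp, 0.19 with median scaling, 0.046 with quantile normalization and 0.17 with array quality weights. miR-363-3p, at -0.67 with replicate 9 at the floor, turned to 0.11 with the mean processed signal, 0.12 with the value table, 0.15 with normexp and 0.35 with array quality weights. Leaving out each replicate in turn gave -0.68 to -0.34 for miR-106b-5p, -0.53 to -0.23 for miR-93-5p, -0.71 to -0.33 for miR-25-3p, -0.25 to 0.21 for miR-20b-5p and -1.10 to 0.43 for miR-363-3p. For miR-20b-5p the sign turned without control replicates 1 or 4 or reflux esophagitis replicates 9 or 10, and for miR-363-3p without reflux esophagitis replicate 9. The cause of these turns was not tested.

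The count of all tested miRNAs called lower was 2. It was 0 with the mean processed signal, the value table, normexp, the 75th percentile over all miRNAs, the methods' scaling and the filter to miRNAs detected on all 8 arrays. It was 1 with no scaling, spike-in scaling, the filter of detection on at least 1 array, no filter, eBayes with trend and robust, and the methods' t-test and analysis of variance with Benjamini-Hochberg or Bonferroni adjustment, and between 1 and 2 when each replicate was left out. It was 1 without control replicates 1, 2 or 3 or reflux esophagitis replicates 8 or 10. Every within-array difference between members moved by less than the spread between replicates under its alternatives, but the number of miR-106b-25 members whose difference from miR-363-3p did not overlap between the groups went from 3 to 0 with the longer probe of miR-363-3p on all 8 arrays. With the mean processed signal, the 3 miRNAs closest to miR-106b-5p, miR-93-5p and miR-25-3p were the same 3, and for miR-20b-5p 2 of the 3 remained, while cluster mates fell to rank 6 (miR-93-5p for miR-106b-5p) and rank 5 (miR-106b-5p for miR-93-5p). A block for slide or scan was not run because all arrays shared 1 slide and 1 scan. No paired analysis was possible because the replicate numbers of the groups, 1 to 4 and 5, 8, 9 and 10, share none. miR-363-3p, near the lower limit of detection, is the member whose values these arrays settle least.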
